A study of Sus scrofa with 27 samples.

Results

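The 10 genes described here belong to the amino acid response that the transcription factor ATF4 drives. They are ATF4 itself, its stress targets DDIT3, TRIB3, CHAC1 and SESN2, the amino acid synthesis enzymes ASNS, PSAT1 and PHGDH, and SLC7A5 and SLC3A2, which form 1 amino acid transporter. They were taken from the deposited gene counts by name, as 10 of 31908 genes, and all 10 reached at least 10 counts in some library and were tested in every comparison. The counts come from pig lungs (Sus scrofa, Large-White) kept alive outside the body by ex vivo lung perfusion (EVLP), in which a warmed, oxygenated perfusate is pumped through the ventilated organ. In both groups the donors were non-heart-beating pigs, the lungs were kept cold before perfusion, and the Steen perfusate held methylprednisolone, cefuroxime and heparin. In the Gold Standard group (GS, 5 pigs) part of the perfusate was replaced at intervals, and in the Pediatric Dialysis group (PD, 4 pigs) the perfusate was dialysed continuously through a pediatric hemodialysis membrane. Each lung was biopsied at 0h, after cold storage and before perfusion, and again at 6h and 12h, which gives 27 RNA-seq libraries from 9 pigs. The 0h biopsy is thus the baseline of its own lung. No library analysed here comes from an unperfused lung at 6h or 12h, so perfusion cannot be told apart from time outside the body.

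ATF4 is the effector of the integrated stress response. When amino acids run short, unfolded protein builds up, heme is lacking or double-stranded RNA appears, a stress kinase phosphorylates the initiation factor eIF2 alpha. Most translation then slows, while the ATF4 mRNA is translated better because of the upstream reading frames in its leader. The protein binds composite C/EBP-ATF elements in its target genes, which supply amino acids, charge tRNAs and, under long stress, act in growth arrest and cell death. Much of the control of ATF4 is therefore at translation, which mRNA counts do not show, whereas the mRNA of its targets reads out its activity more directly.

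Total counts were 26335584 to 67522703 per library in the GS group (median 53623755) and 14650700 to 21820935 in the PD group (median 19344265). No PD library was as deep as any GS library, so the group cannot be told apart from sequencing depth or from any batch that goes with it. A count of 3 corresponded to at most 0.104 CPM (counts scaled by library size) in GS and 0.324 CPM in PD. All 10 lung cell markers, among them SFTPC, AGER and PECAM1, were detected in all 27 libraries, and of 6 markers of other tissues INS was at 0 in all 27, MYL2 in 18 and APOA2 in 4, while ALB, CKM and MYH7 were detected in all 27 (up to 0.831, 9.83 and 2.67 CPM). The PD library of pig 2 at 12h stood apart. It had the fewest counts (14650700) and the fewest genes with a count (18979), and mitochondrial genes took 1.65% of its counts, beside 4.97% to 11.6% in the other PD libraries. Its 100 most abundant genes took 43.1%, beside 22.5% to 43.9% (43.9% in that of pig 4 at 0h). Levels are given as CPM normalised by the TMM method, and values are listed in the order of pigs 9, 17, 44, 55 and 77 for GS and of pigs 2, 3, 4 and 5 for PD. For the 12h library of PD pig 2, TMM set an effective size of 9261718 counts beside its total of 14650700. Its levels below are therefore higher than they would be by total counts.

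The DNA element through which ATF4 acts is shown first, since it is what the targets are known to share. Its core was searched as TGATGNAA on both strands of the pig genome (Sscrofa11.1, RefSeq sequence). From 250 bases before to 50 bases after the gene start, it was found in 1 of 10 genes at the RefSeq start (CHAC1) and in 2 of 10 at the Ensembl start (CHAC1 and SESN2), against 626 of 20667 windows at RefSeq starts of protein-coding genes (3.03%) and 660 of 20275 at Ensembl starts (3.26%). A window of 1000 bases to either side, chosen after the narrow one had been seen, held it in 4 of 10 genes at the RefSeq start and in 5 of 10 at the Ensembl start, against 4520 of 20653 RefSeq windows (21.9%) and 4584 of 20275 Ensembl windows (22.6%). A match at either start was held by 6 of the 10 and by 3272 of 13642 protein-coding genes named in both sets (24%). Of these 6, 4 carry it as TGATGCAA, or as the reverse complement TTGCATCA, before a start, and these are shown. They are examples picked from the matches found, and the share of all genes with this narrower form was not counted. Each stretch is written 5′ to 3′ along the gene with the match in capitals:
CHAC1: ctcccccgccgTTGCATCActcctcaaggt
SESN2: ctcagcatagcTGATGCAAcagtggagagt
TRIB3: taaccttgtacTTGCATCAttccatcagta
DDIT3: gttgccaaacaTTGCATCAtccccgccccc
The CHAC1 stretch lies at chr1:130363479-130363508 on the minus strand, where the match begins 165 bases before the RefSeq start, upstream of the gene. The SESN2 stretch at chr6:85324163-85324192 on the plus strand has its match 54 bases before the Ensembl start and lies within an intron of the longer RefSeq gene. The TRIB3 stretch at chr17:34816894-34816923 on the minus strand has its match 461 bases before the Ensembl start, directly followed by a further match in lower case (TTCCATCA, 453 bases before that start), and also lies in a RefSeq intron. The DDIT3 stretch at chr5:22790114-22790143 on the minus strand has its match 265 bases before the RefSeq start, inside the longer Ensembl model. The matches are a description of letters, and no binding was measured.

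In the GS group, 7 of 10 genes rose at 6h against 0h (2-fold or more with an adjusted p under 0.05, in the edgeR quasi-likelihood test with pig as block), where 5.5% of all 18594 genes tested rose and 11.1% changed either way. The genes that rose were ATF4, TRIB3, CHAC1, SESN2, ASNS, SLC7A5 and SLC3A2. At 12h, 5 of 10 rose (ATF4, TRIB3, CHAC1, SESN2 and SLC3A2), against 6.99% of all genes higher and 15.7% either way. In the PD group only TRIB3 passed at 6h, against 0.135% of 15545 genes higher and 0.142% either way, and at 12h the same 5 genes as in GS passed, against 3.22% higher and 5.98% either way. No gene of the 10 fell by these thresholds in either group. Over the 10 genes the median log2 fold change was 1.25 and 1.08 in GS at 6h and 12h and 0.95 and 1.78 in PD, beside medians over all genes tested of −0.05, −0.08, −0.02 and −0.05. Without pig 3 or without pig 5 no gene of the 10 and no gene of the table passed at 12h, while without pig 2, or without its 12h library alone, 7 of the 10 passed, ASNS and SLC7A5 joining the 5. DESeq2 and 1 fit of all 27 libraries also called these 7. The calls over all genes also grew in these settings, from 930 of 15545 in the main fit. They were 3826 of 15703 without PD pig 2 and 4161 of 15875 without its 12h library. With DESeq2 they were 2560 of 15545, and in 1 fit of all libraries 3300 of 17884. The log2 fold changes of the 5 without pig 3 and without pig 5 were 3.75 and 3.45 for TRIB3 (3.73 with all pigs), 2.03 and 1.86 for ATF4 (1.94), 4.28 and 4.04 for CHAC1 (3.96), 2.31 and 2.06 for SESN2 (2.23) and 2.37 and 2.31 for SLC3A2 (2.26), with adjusted p from 0.104 to 0.276. TRIB3 at 6h was not called without pig 3, 4 or 5, at log2 fold changes of 2.76, 2.62 and 2.685 beside 2.73 (adjusted p = 0.186, 0.101 and 0.342). Over all genes the calls went from 930 to 399 in PD at 12h without pig 4 and to 3826 without pig 2, and from 2057 to 1318 in GS at 6h without pig 44.

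**Figure D1:**
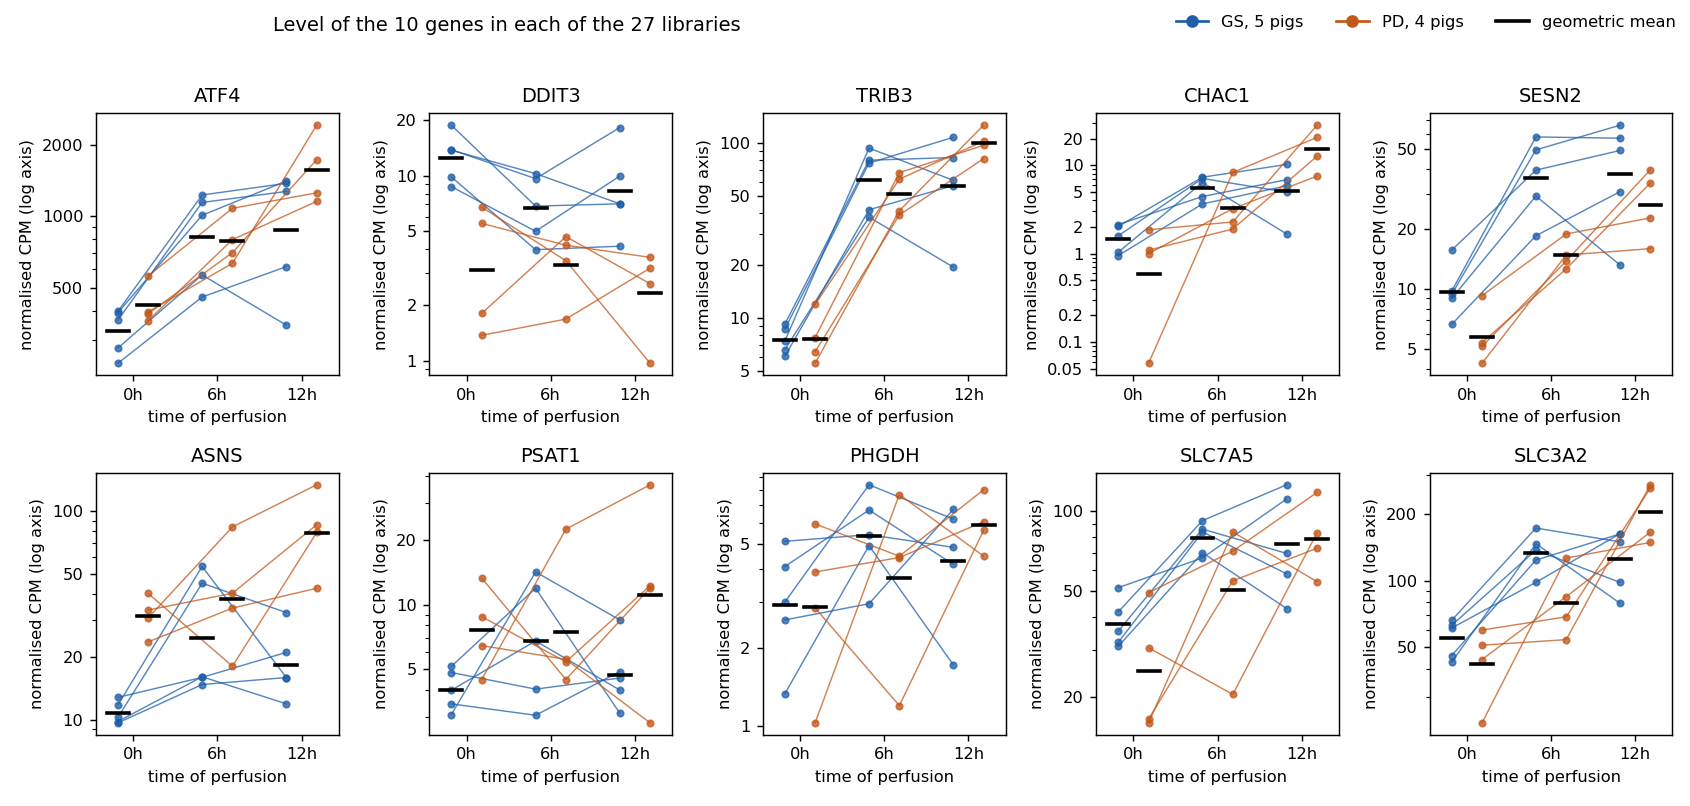
Normalised CPM of each gene on a log axis at 0h, 6h and 12h, with 1 line per pig (GS in blue, PD in orange) and black bars for the geometric mean of each group and time. TRIB3 was higher at 6h than at 0h in every pig of both groups, while DDIT3 was lower at 6h than at 0h in all 5 GS pigs.

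ATF4 (ENSSSCG00000000084, chr5:8738880-8745225, minus strand) had the highest level per length of the 10 in every group and time. ATF4 in the GS pigs stood at 278, 239.8, 364, 392 and 397 CPM at 0h, at 565, 456, 1143, 1009 and 1229 CPM at 6h and at 347, 613, 1272, 1407 and 1376 CPM at 12h. The 0h and 6h ranges did not overlap, but at 12h pig 9 had returned to 347 CPM, inside the 0h range. The log2 fold change was 1.29 (SE 0.19, adjusted p = 0.000754) at 6h, which is 2.44-fold, and 1.40 (SE 0.19, adjusted p = 0.000279) at 12h, 2.65-fold. ATF4 in the PD pigs stood at 395, 363, 560.4 and 389 CPM at 0h, 633, 797, 1080 and 702 CPM at 6h and 2420, 1155, 1255 and 1731 CPM at 12h, and none of the 3 ranges overlapped. The level rose 3.85-fold at 12h, a log2 fold change of 1.94 (SE 0.38, adjusted p = 0.0212). At 6h it was 0.92 (SE 0.36, adjusted p = 0.457), with a higher level in 4 of 4 pigs, and did not pass. The 12h library of pig 2 held the highest level of ATF4 in all 27, and without it the 12h change was 1.63 (adjusted p = 0.00681).

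TRIB3 (ENSSSCG00000039862, chr17:34807534-34816451, minus strand), a pseudokinase that ATF4 induces and that feeds back on it, was the only gene of the 10 called at both times in both groups. TRIB3 in the GS pigs went from 6.6, 6.05, 9.22, 8.64 and 7.39 CPM at 0h to 37.6, 41.5, 79.6, 76.7 and 93.3 CPM at 6h and 19.6, 57, 82.5, 108 and 61.1 CPM at 12h. In the PD pigs it went from 12, 6.42, 7.74 and 5.52 CPM to 62.1, 38.8, 67.6 and 41 CPM and 102, 81.2, 96.8 and 126 CPM. Each of the 9 pigs was higher at both later times, and no later library of either group overlapped the 0h range of its group. The fold change in GS was 8.12 at 6h, log2 3.02 (SE 0.25, adjusted p = 5.67e-05), and 7.64 at 12h, log2 2.93 (SE 0.25, adjusted p = 3.71e-05). In PD it was 6.66 at 6h, log2 2.73 (SE 0.35, adjusted p = 0.0176), and 13.3 at 12h, log2 3.73 (SE 0.36, adjusted p = 0.0054). By p-value TRIB3 ranked 4 of 18594 genes in GS at 6h, 12 at 12h, 3 of 15545 in PD at 6h and 1 at 12h.

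SESN2 (ENSSSCG00000029438, chr6:85324228-85348044, plus strand), a leucine sensor that restrains mTORC1, was called in the same comparisons as ATF4. SESN2 in the GS pigs went from 8.99, 6.67, 9.79, 15.7 and 9.43 CPM at 0h to 29.2, 18.5, 57.7, 39.4 and 49.7 CPM at 6h and 13.2, 30.8, 56.9, 49.4 and 66.1 CPM at 12h. The 0h and 6h ranges did not overlap, and pig 9 again lay lowest at 12h, inside the 0h range. The log2 fold change was 1.86 (SE 0.27, adjusted p = 0.000703) and 1.95 (SE 0.28, adjusted p = 0.000314). SESN2 in the PD pigs went from 5.19, 4.26, 9.29 and 5.42 CPM to 13.8, 14.8, 18.9 and 12.7 CPM and 39.6, 16, 22.7 and 34 CPM, with 0h below both later times in all libraries. The change passed at 12h, log2 2.23 (SE 0.40, adjusted p = 0.0179). At 6h the estimate was 1.36 (SE 0.38, adjusted p = 0.249), and it passed only with DESeq2 or with all 27 libraries in 1 fit.

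CHAC1 (ENSSSCG00000038521, chr1:130360513-130363308, minus strand), which degrades glutathione, had the lowest level per length of the 10 at 0h and the largest change of the 10 in PD at 12h with all 4 pigs, while without pig 4 TRIB3 had the largest (3.79, against 3.55 for CHAC1). CHAC1 in the GS pigs went from 1.04, 0.948, 1.59, 2.03 and 2.13 CPM at 0h to 6.37, 3.65, 7.08, 7.31 and 4.42 CPM at 6h and 1.67, 5.85, 4.95, 10.2 and 6.85 CPM at 12h. The 6h range lay above the 0h range, and the 12h range overlapped it through pig 9 alone. The log2 fold change was 1.94 (SE 0.34, adjusted p = 0.0017) and 1.84 (SE 0.33, adjusted p = 0.0013), or 3.85-fold and 3.58-fold. CHAC1 in the PD pigs went from 1.09, 1, 0.0573 and 1.86 CPM to 1.9, 3.23, 8.29 and 2.28 CPM and 12.6, 7.52, 20.6 and 28.4 CPM. The 0h value of pig 4 is 1 count, so its ratio at 12h, 359-fold from 299 counts, has a 95% counting interval (exact binomial) of 64 to 14242. Its ratio at 6h, from 128 counts, was 144 with an interval of 25.5 to 5751. In the other 3 PD pigs the 12h level was 11.4, 7.43 and 15.2 times that at 0h, with a prior count of 0.5 added to each library. Fitted over all 4 pigs, the 12h log2 fold change was 3.96 (SE 0.80, adjusted p = 0.024), and without pig 4 it was 3.55 (adjusted p = 0.029). At 6h it was 1.90 (SE 0.79, adjusted p = 0.487) and did not pass, and without pig 4 it was 1.03.

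DDIT3 (ENSSSCG00000044553, chr5:22785441-22791134, minus strand), which encodes CHOP, a factor linked to cell death under long stress, was called higher in no comparison. DDIT3 in the GS pigs went from 18.7, 9.85, 8.73, 13.7 and 13.8 CPM at 0h to 6.85, 3.99, 5.01, 10.3 and 9.64 CPM at 6h and 7.05, 4.16, 9.95, 7.05 and 18.2 CPM at 12h. It was lower at 6h in 5 of 5 pigs and at 12h in 3 of 5, with overlapping ranges. The 6h log2 fold change of −0.93 (SE 0.27, adjusted p = 0.0208) passed on p but stayed under a 2-fold change (1.91-fold lower), and the 12h value was −0.61 (SE 0.27, adjusted p = 0.0887). Without pig 55 or without pig 77 the 6h change passed both thresholds. DDIT3 in the PD pigs went from 6.77, 5.53, 1.38 and 1.8 CPM to 3.48, 4.21, 1.68 and 4.69 CPM and 0.972, 3.62, 3.17 and 2.61 CPM, higher in 2 of 4 pigs at either time. Its log2 fold change was −0.04 (SE 0.59, adjusted p = 0.985) at 6h and −0.37 (SE 0.61, adjusted p = 0.756) at 12h, and without the 12h library of pig 2 (9 counts) the latter was 0.14.

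The DDIT3 values are uncertain, because gene models overlap at this locus. An unnamed gene on the same strand (ENSSSCG00000050998, chr5:22785441-22789829) lies wholly inside the DDIT3 model and holds 2492 counts over the 27 libraries, beside 8748 for DDIT3. How reads that fit both models were counted is not given in the sources used here. The mean level of the inner model was 1.56, 1.51 and 1.93 CPM in GS at 0h, 6h and 12h and 3.66, 5.58 and 6.98 CPM in PD, so it exceeded DDIT3 in PD at 6h and 12h. With the counts of both models added up, an alternative chosen after seeing the data, the PD log2 fold change of DDIT3 turned to 0.35 at 6h and 0.58 at 12h, without passing. The 3′ end of DDIT3 also overlaps MARS1 (chr5:22751921-22785928, plus strand), whose reads would be told apart only by a strand-aware count.

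Of the 3 synthesis enzymes among the 10, ASNS alone was called against 0h, in GS at 6h. ASNS (ENSSSCG00000015340, chr9:77318213-77509020, minus strand), which makes asparagine, stood in the GS pigs at 11.8, 10.2, 9.79, 12.8 and 9.64 CPM at 0h, 54.3, 45.1, 16, 15.9 and 14.7 CPM at 6h and 15.9, 32.6, 11.9, 21 and 15.9 CPM at 12h. The 6h range lay above the 0h range, with pigs 9 and 17 more than 4-fold higher than at 0h and pigs 44, 55 and 77 between 1.25-fold and 1.64-fold higher. Pigs 9 and 17 also had the shallower GS libraries (26335584 to 41802541 counts, beside 51708598 to 67522703), and the part of depth was not tested. The log2 fold change passed at 6h, 1.21 (SE 0.30, adjusted p = 0.0101), but not at 12h, 0.72 (SE 0.29, adjusted p = 0.0663), and without pig 9 the 6h change was 0.94, under 2-fold. ASNS in the PD pigs stood at 23.6, 33.5, 30.7 and 40.2 CPM at 0h, 34.3, 40.4, 84 and 18 CPM at 6h and 42.6, 86.1, 134 and 79 CPM at 12h. At 12h all 4 pigs lay above the whole 0h range, yet the log2 fold change of 1.28 (SE 0.40, adjusted p = 0.0808) missed the threshold. With DESeq2 (1.33, adjusted p = 0.0134) and in 1 fit of all libraries (1.28, adjusted p = 0.0185) it passed. At 6h it was 0.31 (SE 0.41, adjusted p = 0.781), and without pig 4 it was −0.03.

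PHGDH (ENSSSCG00000006717, chr4:101408308-101478144, minus strand), the first enzyme of serine synthesis, stood in the GS pigs at 1.33, 2.98, 4.08, 5.1 and 2.55 CPM at 0h, 4.91, 8.39, 6.72, 5.41 and 2.94 CPM at 6h and 1.72, 6.21, 4.17, 4.84 and 6.75 CPM at 12h. In the PD pigs it stood at 2.84, 3.9, 1.03 and 5.95 CPM, 1.2, 4.42, 7.7 and 4.47 CPM and 5.62, 6.06, 4.48 and 8.03 CPM. All ranges overlapped, and no change passed in either group. The log2 fold change was 0.89 (SE 0.33, adjusted p = 0.0597) and 0.54 (SE 0.33, adjusted p = 0.206) in GS at 6h and 12h, and 0.40 (SE 0.60, adjusted p = 0.809) and 0.89 (SE 0.57, adjusted p = 0.364) in PD. Without PD pig 4 the PD values were −0.39 at 6h and 0.72 at 12h. At 12h the level was higher than at 0h in 4 of 5 GS pigs and in 4 of 4 PD pigs, and at 6h in GS the change passed without pig 77. PSAT1 (ENSSSCG00000005287, chr1:231142625-231172363, plus strand), the next enzyme of the pathway, stood in the GS pigs at 5.15, 3.07, 3.99, 4.83 and 3.44 CPM, 11.9, 14.2, 6.77, 4.04 and 3.05 CPM and 3.12, 8.49, 4, 4.55 and 4.87 CPM. In the PD pigs it stood at 6.44, 8.79, 4.47 and 13.3 CPM, 5.56, 5.41, 22.5 and 4.47 CPM and 2.81, 12.3, 36.3 and 12 CPM. No PSAT1 change passed, with 0.76 (SE 0.36, adjusted p = 0.124) and 0.19 (SE 0.35, adjusted p = 0.692) in GS and −0.22 (SE 0.61, adjusted p = 0.898) and 0.40 (SE 0.61, adjusted p = 0.736) in PD. Pig 4 of the PD group was 5.02-fold and 8.1-fold higher than at 0h, while pigs 2 and 5 were lower than at 0h at both times. Without pig 4 the PD log2 fold changes of PSAT1 were −0.74 and −0.15.

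SLC7A5 and SLC3A2 form the transporter LAT1-4F2hc, which brings large neutral amino acids such as leucine into the cell. SLC3A2 (ENSSSCG00000022404, chr2:8892089-8919072, minus strand), the heavy chain, stood in the GS pigs at 42.9, 45.9, 66.2, 61.1 and 62.9 CPM at 0h, 147, 124, 173, 98.2 and 137 CPM at 6h and 78.9, 162, 149.5, 163 and 98.1 CPM at 12h. In the PD pigs it stood at 51.2, 44.1, 22.8 and 59.8 CPM, 54.2, 84.7, 126 and 68.7 CPM and 271, 166, 149 and 262 CPM. All GS libraries of later times lay above 0h, and in PD the 12h range lay above both earlier ones. The log2 fold change was 1.28 (SE 0.20, adjusted p = 0.001) and 1.17 (SE 0.20, adjusted p = 0.000928) in GS, and 0.98 (SE 0.42, adjusted p = 0.506) and 2.26 (SE 0.42, adjusted p = 0.0197) in PD, or 4.79-fold at 12h. SLC7A5 (ENSSSCG00000032996, chr6:1545940-1574288, plus strand), the light chain that carries the substrate, stood in the GS pigs at 31, 41.8, 35.4, 51.6 and 32.1 CPM, 69.8, 92.3, 85.7, 66.8 and 83.7 CPM and 43.1, 126, 69.5, 111 and 58.2 CPM. In the PD pigs it stood at 30.7, 16.5, 16 and 49.4 CPM, 20.5, 54.8, 83.6 and 70.9 CPM and 83, 72.7, 54.4 and 118 CPM. In GS it rose at 6h, 1.07 (SE 0.19, adjusted p = 0.00185). At 12h its log2 fold change of 0.99 (SE 0.19, adjusted p = 0.00175) passed on p and lay just under 2-fold (1.98-fold), and with DESeq2, DESeq2 size factors, no filter, no replicate block, 1 fit of all libraries, or without pig 9, 44 or 77 it passed both thresholds. Without PD pig 4 the 6h log2 fold change was 0.46 for SLC3A2 and 0.62 for SLC7A5. In PD the values of SLC7A5 were 1.11 (SE 0.47, adjusted p = 0.503) and 1.61 (SE 0.46, adjusted p = 0.0627), and all 4 pigs at 12h lay above the 0h range. The 12h change passed with DESeq2 (1.66, adjusted p = 0.00511), in 1 fit of all libraries (1.602, adjusted p = 0.00365) and with no filter on low counts (1.63, adjusted p = 0.042).

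**Figure D2:**
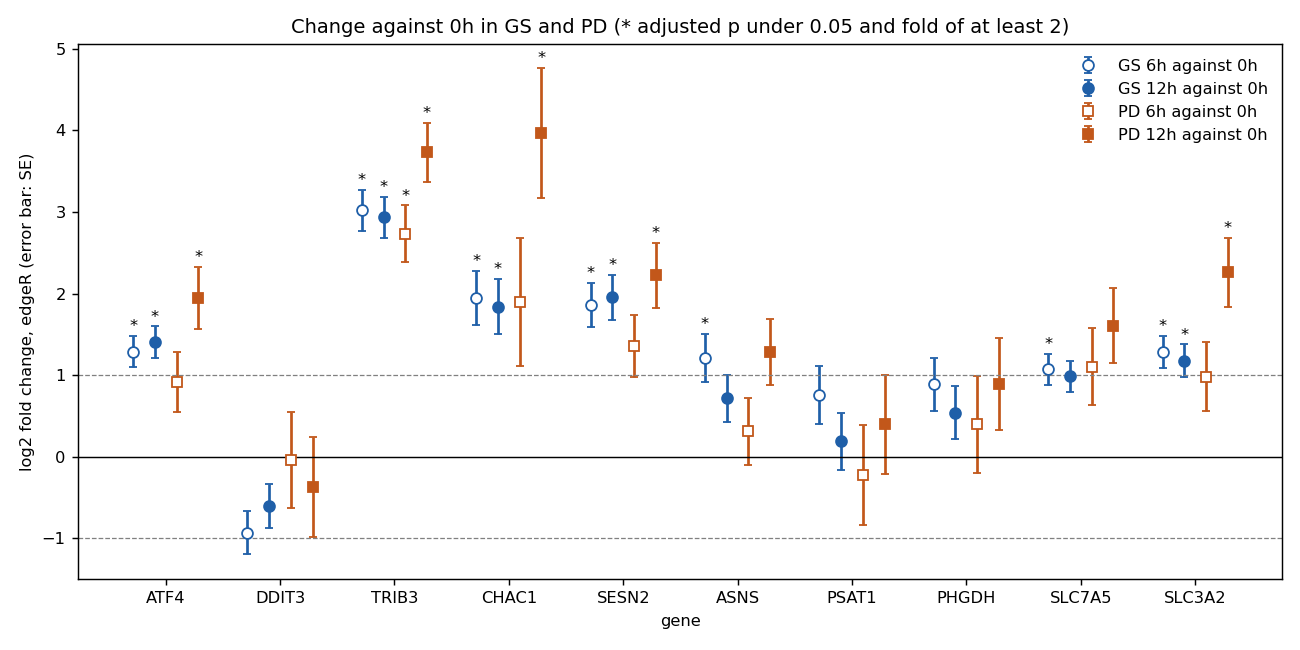
Log2 fold change of each gene against 0h from the edgeR fit of its group, with SE as error bar, for GS (circles) and PD (squares) at 6h (open) and 12h (filled). Asterisks mark the 7, 5, 1 and 5 calls of GS at 6h, GS at 12h, PD at 6h and PD at 12h, and dashed lines mark a 2-fold change.

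The genes differed widely in level per length at 0h in GS. With the exon length of each RefSeq gene, ATF4 stood at 158 ± 33.6 CPM per kb (SD, n = 5), SLC3A2 at 27.4 ± 5.22, DDIT3 at 14 ± 4.24, SLC7A5 at 9.07 ± 2.01 and ASNS at 6.44 ± 0.811 CPM per kb. Below them lay TRIB3 at 2.39 ± 0.421, PSAT1 at 1.85 ± 0.4, PHGDH at 1.69 ± 0.759, SESN2 at 1.51 ± 0.5 and CHAC1 at 0.981 ± 0.346 CPM per kb. Among the last 5, each lay within the SD of its neighbour in this order or within the sum of both SDs, as did DDIT3 and SLC7A5, and SLC7A5 and ASNS. At 12h in GS, TRIB3 followed ATF4 and SLC3A2 at 20.6 ± 10.3 CPM per kb, beside SLC7A5 at 19.3 ± 8.38 CPM per kb. At 12h in PD, ATF4 led at 773 ± 272 CPM per kb (SD, n = 4), before SLC3A2 at 104 ± 31.2, ASNS at 50.7 ± 22.3 and TRIB3 at 32 ± 5.85 CPM per kb. DDIT3 as counted was lowest there at 2.79 ± 1.25 CPM per kb, within the SD of PHGDH at 3.17 ± 0.777 CPM per kb. With the overlapping model added, DDIT3 had a mean of 9.58 CPM at 12h in PD, not 2.59 CPM, so its place rests on the model counted. These lengths are of the RefSeq models, which differ from the Ensembl models counted, and RefSeq lists the SLC7A5 locus as a non-coding gene.

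Whether the response grew between 6h and 12h was asked within each group. In GS no gene of the 10 and no gene of 18594 passed (0% called, edgeR, 882 genes at an unadjusted p under 0.05, 2 genes with DESeq2, none of the 10). The 10 log2 differences ran from −0.57 for PSAT1 to 0.32 for DDIT3. In PD also no gene passed (0% of 15545 called, 1562 at an unadjusted p under 0.05, 224 genes with DESeq2, none of the 10), yet 9 of the 10 estimates were positive. ATF4, TRIB3, ASNS, CHAC1, SESN2 and SLC3A2 were each higher at 12h than at 6h in 4 of 4 PD pigs, and these 6 had an unadjusted p under 0.05. Their log2 differences were 1.03 (SE 0.37) for ATF4, 0.997 (SE 0.33) for TRIB3, 0.97 (SE 0.40) for ASNS, 2.06 (SE 0.74) for CHAC1, 0.87 (SE 0.38) for SESN2 and 1.28 (SE 0.42) for SLC3A2, with edgeR adjusted p from 0.406 to 0.484. Without the 12h library of pig 2 they were 0.73 for ATF4, 1.13 for TRIB3, 1.14 for ASNS, 2.04 for CHAC1, 0.60 for SESN2 and 1.096 for SLC3A2 (adjusted p from 0.18 to 0.422). With all 27 libraries in 1 fit, 492 genes passed in PD, SLC3A2 among them. The GS and PD steps from 6h to 12h were not tested against each other.

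The question the study put to these libraries was whether the fold changes differ between PD and GS. At 12h all 10 differences (PD minus GS) were positive in the edgeR interaction of group and time, with a median of 0.52 on the log2 scale beside −0.01 over 17884 genes, but none passed (0% of all genes called, 1069 at an unadjusted p under 0.05, and 15 genes but none of the 10 with DESeq2). The sign was not fixed for DDIT3, which was below 0 without the replicate block or PD pig 4, for PSAT1, below 0 without PD pig 4, and for SESN2, below 0 without GS pig 9 or PD pig 2. Of lists described below, positive too were 20 of 21 tRNA synthetase genes (median 0.47) and 8 of 8 partner transcription factors (0.36). So were 7 of 8 genes around eIF2 alpha (0.66), but only 4 of 14 other ATF4-linked stress targets (−0.19). Counts were 11 of 17 for enzymes (0.08), 7 of 14 for transporters (0.07) and 7 of 12 for ATF6 and XBP1 genes (0.17). The lean was thus neither particular to the 10 genes nor shared by all these lists. Without PD pig 2, 151 genes passed at 12h and 248 at 6h, none of the 10 among them. Without its 12h library alone, the difference at 12h went from 0.51 to 0.21 for ATF4 and from 0.25 to 0.00071 for SESN2, and was 2.05 for CHAC1 and 0.84 for SLC3A2. CHAC1 had the largest difference, 2.08 (SE 0.78, adjusted p = 0.75), and SLC3A2 the next, 1.04 (SE 0.44, adjusted p = 0.791), with unadjusted p of 0.0153 and 0.0274. With the overlapping gene model added, the DDIT3 difference went from 0.22 to 1.06 (edgeR adjusted p = 0.846), just above that of SLC3A2. The within-pig log2 ratios at 12h of CHAC1 were 0.68, 2.61, 1.63, 2.32 and 1.68 in GS and 3.52, 2.89, 8.18 and 3.92 in PD, so every PD pig lay above every GS pig. For SLC3A2 they were 0.88, 1.82, 1.17, 1.41 and 0.64 in GS and 2.40, 1.91, 2.70 and 2.13 in PD, again without overlap. Both reached p = 0.0159 in an exact two-sided Wilcoxon test (n = 5 and 4), the smallest p that this design allows, and 0.734 after adjustment over all genes. These 2 of 10 without overlap stand beside 2.16% of all genes tested. The CHAC1 ratio of PD pig 4 stands on a baseline of 1 count.

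**Figure D3:**
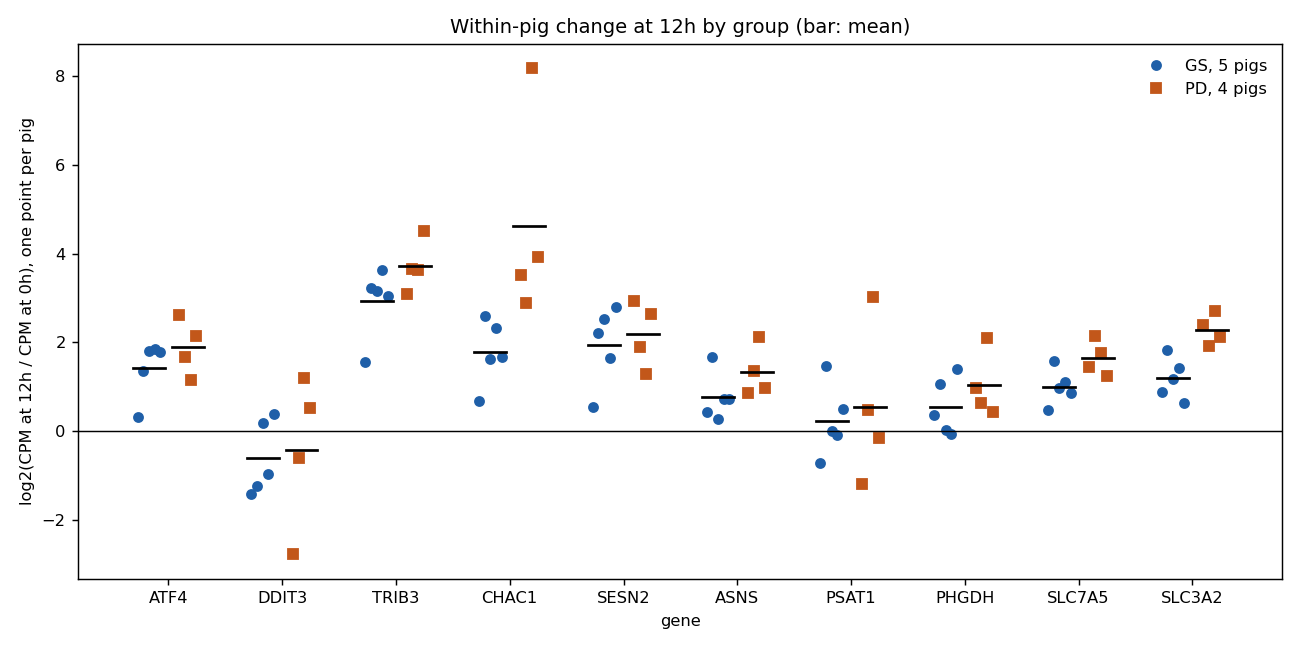
Log2 ratio of the 12h to the 0h level within each pig, 1 point per pig, GS in blue and PD in orange, with bars for the mean. The groups do not overlap for CHAC1 and SLC3A2 and overlap for the other 8 genes, and the highest CHAC1 point (8.18, PD pig 4) rests on 1 count at 0h.

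For the other 8 genes the groups overlapped at 12h, and the exact 95% interval of the shift (PD minus GS, Hodges-Lehmann, log2 scale) included 0. It ran from −0.64 to 1.83 for ATF4, from −0.14 to 2.09 for TRIB3, from −1.25 to 2.10 for SESN2, from −0.70 to 1.69 for ASNS and from −0.15 to 1.29 for SLC7A5. It ran from −0.76 to 2.07 for PHGDH, from −1.69 to 3.10 for PSAT1 and from −2.97 to 2.43 for DDIT3, the widest of the 8, so these pigs do not bound the differences closely. At 6h, 8 of the 10 interaction estimates were below 0 (median −0.35, beside 0.02 over all genes), CHAC1 lying above 0 without the block, GS pig 9, PD pig 2 or PD pig 5, and none passed (0% called, 1046 genes at an unadjusted p under 0.05 but none of the 10, and 7 genes but none of the 10 with DESeq2). The groups overlapped for all 10 genes at 6h, against 3.06% of all genes without overlap. ATF4 at 6h had log2 ratios of 1.02, 0.93, 1.65, 1.36 and 1.63 in GS and 0.68, 1.13, 0.95 and 0.85 in PD, a shift with an interval of −0.95 to 0.11 (exact p = 0.111).

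The groups already differed in 3 of the 10 genes before perfusion, when neither treatment had begun, and 29.1% of 16477 genes differed in the same comparison. At 0h, ASNS was 3.04-fold and PSAT1 2.07-fold higher in PD than in GS, log2 1.61 (SE 0.21, adjusted p = 0.000122) and 1.05 (SE 0.33, adjusted p = 0.0225), and the ASNS levels of the groups did not overlap. DDIT3 was 3.26-fold lower in PD, log2 −1.70 (SE 0.46, adjusted p = 0.011), while the unnamed model inside it was higher, log2 1.27 (SE 0.39, adjusted p = 0.0219). With both models added up, DDIT3 stood at −0.91 (adjusted p = 0.0865) and no longer passed. PSAT1 also lost its call without filter on low counts and without GS pig 17, 44 or 77 or PD pig 5, while ASNS kept it in each of these. Of the others, SESN2 was at −0.70 (SE 0.32, adjusted p = 0.0976), ATF4 at 0.40 (SE 0.23, adjusted p = 0.176), and TRIB3, CHAC1, PHGDH, SLC7A5 and SLC3A2 between −0.59 and 0.13, none past the threshold. Markers of other cells moved with the group. The 3 red cell markers measured summed to 51.6 to 239 CPM in PD at 0h and to 0.355 to 10.5 CPM in GS, with HBB detected in all 27 libraries, AHSP at 0 in 5 and ALAS2 in 1. The 10 lung cell markers summed to 23390 to 77326 CPM in PD and to 8578 to 11342 CPM in GS, although gene by gene 1 was called higher and 4 lower in PD. Of the 10, 3 had a positive log2 difference in PD, and their median was −0.36. Over all libraries SFTPC reached 85055 CPM and COL1A1, the next highest, 2716 CPM, so the highest of these sums rest mostly on SFTPC. The 7 neutrophil and monocyte markers measured summed to 814 to 1351 CPM in PD and to 281 to 623 CPM in GS, with S100A8 and S100A12 called higher and CSF3R lower in PD. Their part in the differences was not tested, and fewer cells of a type cannot be told apart from less RNA per cell in such bulk tissue. Against 0h, 3 of 9 lymphocyte markers fell in GS at 12h (MS4A1 by 1.62 and CD2 by 1.20 on the log2 scale the most) and 2 of 9 in PD (MS4A1 by 2.39 and CD3D by 1.58), while of the 10 lung cell markers SCGB1A1 alone was called lower in GS and 0 in PD. Of all genes tested, 8.66% fell in GS at 12h and 2.76% in PD. The lung cell markers summed at 12h to 6787 to 13518 CPM in GS, and in PD to 92836 CPM in pig 2 and 17149 to 24254 CPM in pigs 3, 4 and 5. PD pig 4 went from 77326 CPM at 0h to 16344 CPM at 6h. The summed lymphocyte level was 456 to 682 CPM at 0h and 242 to 673 CPM at 12h in GS, and 649 to 2416 CPM and 310 to 923 CPM in PD, with all 9 markers detected in every library. The highest of these sums rests mostly on JCHAIN, which reached 2079 CPM, while GNLY, the next highest, reached 149 CPM. Of the neutrophil and monocyte markers CD14 rose in GS, log2 1.28 (adjusted p = 0.00159) at 6h and 1.596 (adjusted p = 0.000292) at 12h, and 0 of 7 were called in PD. Of the red cell markers HBB fell in GS, log2 −1.57 (adjusted p = 0.0246) at 6h and −1.4999 (adjusted p = 0.0189) at 12h. In PD no red cell marker was called, and their summed level was 51.6 to 239 CPM at 0h, 13.9 to 91.2 CPM at 6h and 7.84 to 11.8 CPM at 12h in pigs 3, 4 and 5, but 365 CPM at 12h in pig 2. Their part in the changes of the 10 genes was not tested.

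After the mean of each pig was taken off the log2 CPM, the 36 pairs without DDIT3 all correlated positively over the 27 libraries, with Pearson r from 0.21 to 0.97 (median 0.77), as a description of libraries that share time, depth and pig. ATF4 and SESN2 were the closest pair (r = 0.97), followed by TRIB3 with SESN2 (0.94), SLC7A5 with SLC3A2 (0.94), CHAC1 with SLC3A2 (0.93) and ATF4 with TRIB3 (0.93). PSAT1 had r = 0.21 with ATF4 and 0.78 with ASNS. DDIT3 had r below 0 in 8 of its 9 pairs, down to −0.51 with SLC3A2, and 0.02 with PSAT1.

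**Figure D4:**
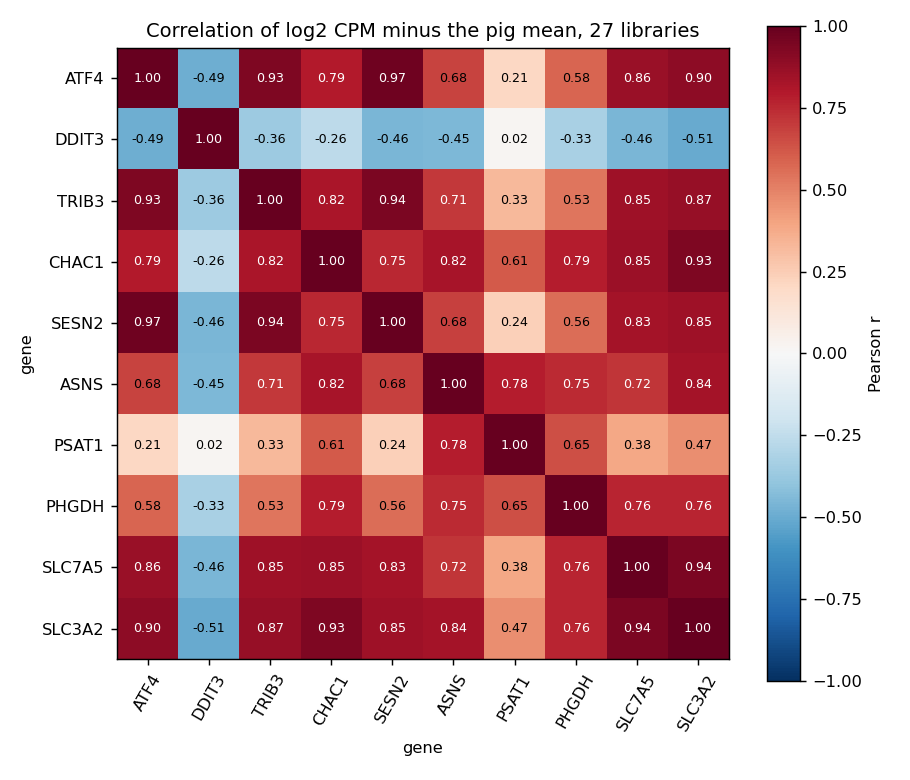
Pearson r between the 10 genes over 27 libraries, computed on log2 CPM minus the mean of each pig, from −1 (blue) to 1 (red). The 36 pairs without DDIT3 run from 0.21 to 0.97, and all 8 values below 0 are in pairs with DDIT3.

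Of 14199 other genes with a symbol, the gene with the pattern most like each of the 10 was sought by the same measure. ATF4 and SESN2 were each other's nearest (r = 0.973). SLC3A2 was nearest to SRM, the spermidine synthase (0.975), TRIB3 to KIAA1191 (0.975), SLC7A5 to NCDN (0.957) and CHAC1 to the small GTPase ARF1 (0.951). ASNS was nearest to AARS1, the cytosolic alanyl-tRNA synthetase (0.904), DDIT3 to SPRY1, an inhibitor of growth factor signalling (0.871), PHGDH to KLHDC8A (0.862) and PSAT1 to SC5D, an enzyme of cholesterol synthesis (0.848).

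Around these 10 genes, other parts of the pathway were counted from lists. The shares of all genes that rose, against which the counts below are to be read, were 5.5% and 6.99% in GS at 6h and 12h and 0.135% and 3.22% in PD. The shares that fell were 5.56% and 8.66% in GS and 0.00643% and 2.76% in PD. Of 8 genes around eIF2 alpha (its 4 kinases, the kinase activator GCN1, 2 phosphatase subunits and eIF2 alpha itself, EIF2S1), 2 rose in GS at 12h, PPP1R15B, the constitutive subunit of the eIF2 alpha phosphatase, log2 1.62 (adjusted p = 8.14e-05), and EIF2AK3, the kinase PERK of the endoplasmic reticulum, 1.17 (adjusted p = 8.14e-05). In PD, PPP1R15B alone rose, 1.91 (adjusted p = 0.0176). At 6h, 2 of the 8 rose in GS and 0 in PD. Of 8 partner and downstream transcription factors, CEBPD rose in GS at 12h, 1.70 (adjusted p = 7.42e-05), 2 rose in GS at 6h and none in PD at either time. The median of these 8 was 0.32 in GS and 1.02 in PD at 12h.

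Of 14 other stress targets linked to ATF4, 4 rose in GS at 12h and 2 in PD, and at 6h 4 rose and 1 fell in GS and 1 rose in PD. GADD45A, a growth arrest gene, and STC2, a secreted stanniocalcin, led in both groups. GADD45A changed by 3.07 (adjusted p = 9.92e-07) in GS, the smallest p of all genes there, and by 2.95 (adjusted p = 0.00681) in PD. STC2 changed by 2.35 (adjusted p = 0.000761) in GS and 3.65 (adjusted p = 0.0176) in PD. Of 15 other amino acid transporters, 3 rose and 1 fell in GS at 12h, where SLC7A1, which carries cationic amino acids, changed by 2.36 (adjusted p = 0.000388), SLC38A2, a carrier of small neutral amino acids, by 1.64 (adjusted p = 8.85e-05) and SLC38A4 by −1.48 (adjusted p = 0.037). In PD 12 of these transporters could be tested and SLC7A1 alone rose, 3.10 (adjusted p = 0.0163). At 6h, 3 of 15 rose in GS and 0 of 12 in PD.

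The same shares of all genes (6.99% in GS and 3.22% in PD at 12h) stand beside the next lists. Of 17 other enzymes of amino acid and one-carbon metabolism, 4 rose in GS at 12h, 3 at 6h and none in PD. CTH, of cysteine synthesis, changed by 1.52 (adjusted p = 0.000465) and SHMT1, which turns serine into glycine, by 1.48 (adjusted p = 0.0412). The cytosolic aminoacyl-tRNA synthetases, which load tRNAs with amino acids, include ATF4 targets. Of 21 genes, these synthetases and the tRNA exportin XPOT, 2 rose in GS at 12h, GARS1 by 1.16 (adjusted p = 0.000259) and NARS1 by 1.004 (adjusted p = 0.00014), and 2 in PD, YARS1 by 1.86 (adjusted p = 0.0471) and GARS1 by 1.38 (adjusted p = 0.0304), with list medians of 0.09 and 0.50. At 6h, 1 rose in GS and 0 in PD. Of 12 genes of the ATF6 and XBP1 arms of the unfolded protein response (chaperones and other proteins of the endoplasmic reticulum, HERPUD1 and EDEM1 of its degradation pathway, and XBP1 itself), which respond mainly to other factors than ATF4, HSPA5, the chaperone BiP, rose in GS at 12h by 1.32 (adjusted p = 0.0055). In PD, DNAJB9 rose by 2.06 (adjusted p = 0.0176) and HSPA5 by 1.61 (adjusted p = 0.0252), and at 6h 1 rose in GS and 0 in PD. The medians of this list at 12h were 0.51 and 0.63, beside 1.08 and 1.78 for the 10 genes. Its log2 fold changes at 12h were positive for 12 of 12 genes in GS and 11 of 12 in PD. The part of either arm in the changes was not tested. All adjusted p-values of this paragraph are from the edgeR fits of each group, over all genes tested.

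**Figure D5:**
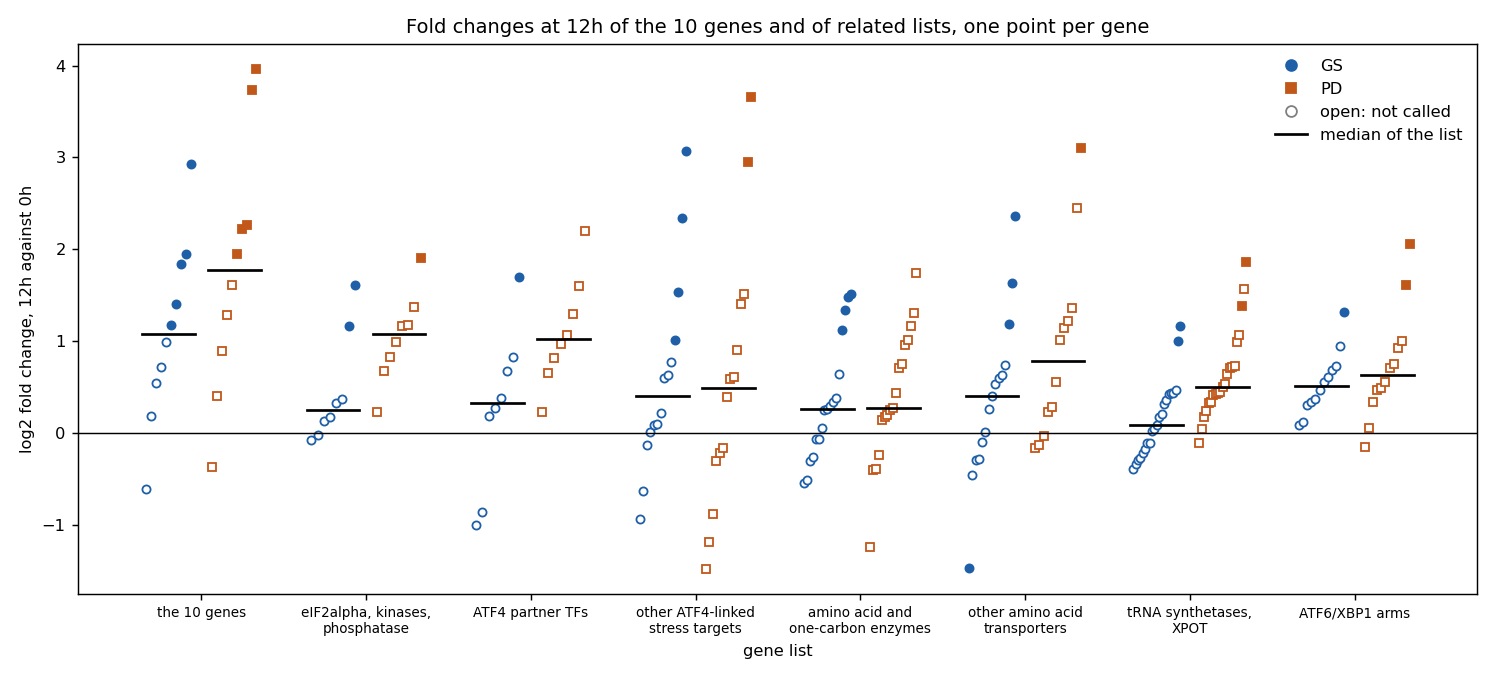
Log2 fold change at 12h against 0h for each gene of the 10 and of 7 related lists, 1 point per gene (GS circles, PD squares, filled where called), with bars at the list medians. The 10 genes have the highest median in either group, 1.08 in GS and 1.78 in PD, and the lists were chosen with results of these data known.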

How the data were processed

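The authors deposited raw counts per gene for 27 lung biopsy libraries (TruSeq stranded mRNA kit, NextSeq sequencer), not normalised. By the study's methods and the submitters' processing notes, reads were demultiplexed with bcl2fastq 2.2.18.12, trimmed with Cutadapt 1.15, aligned with TopHat2 2.0.14 to Sscrofa11.1 and counted with featureCounts (Subread 1.6.0). The strand setting and the handling of reads that fit several genes are not given in the sources used here, which bears on DDIT3. Which biopsy was frozen and which was kept in RNAlater is not labelled. The 10 genes and all lists were chosen with earlier results of these data known.

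Counts were tested with edgeR 4.0.16 in R 4.3.3 (filterByExpr, TMM, robust quasi-likelihood test, pig as block, each group fitted alone over its 3 times, Benjamini-Hochberg adjustment over all genes tested). A call needed a 2-fold change and an adjusted p under 0.05, or for 12h against 6h on the adjusted p alone. The difference between groups was the interaction of group and time over all 27 libraries, and an unpaired Wilcoxon test, which the study ran on fold changes, here in its exact form on log2 ratios within pigs (prior count 0.5). The 0h comparison had no block. The block was used because the libraries of 1 pig come from the same lung. Between libraries of 1 pig, deviations from the group means had a mean r of 0.517 (GS) and 0.116 (PD), against −0.116 and −0.0354 between pigs. The pigs are separate animals. No 2 libraries of the same group agreed within sampling noise. Counting intervals and floors cover counting error only, while Hodges-Lehmann intervals come from the spread between pigs. The test was checked on simulated counts, where it found far fewer of the changed genes in PD than in GS at 12h. Unlike the data, the simulated counts held no effect shared by the libraries of 1 pig. The edgeR variation between libraries beyond counting error (BCV) was 0.259 in GS and 0.489 in PD. A gene that did not pass in PD may thus still have changed. All 10 genes were named, and of each other list the counts and the 2 called genes with the largest change in each direction at 12h. Genes without a symbol in the table were given one by gene ID for 1321 genes. Alternatives were DESeq2 1.42.0, its size factors, rlog values, no filter, no fold threshold, no block, 1 fit of all libraries, a prior count of 5, and leaving out each pig. After seeing the data, the 12h library of PD pig 2 was left out and DDIT3 was summed with the model that overlaps it.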

Additional observations from a re-analysis of the deposited data

Results flagged for a closer look

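PSAT1 in the PD group at 6h had 1 library far from the others. Pig 4 stood at 4.494 on the log2 CPM scale, while the other 3 pigs lay between 2.166 and 2.479, so the gap to the nearest pig took a share of 0.866 of the whole range of the 4 values. Of the 60 groups of libraries looked at (10 genes, 2 groups of pigs, 3 times), chance alone flags about 1 in 20, which is 3, and 1 was found.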

How the results depend on the processing

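Of the log2 fold changes of the 10 genes under all alternatives, 47 changed sign, none of them with an adjusted p under 0.05 (smallest 0.495). Without the replicate block (pig), which pairs the libraries, the genes called numbered 1123 and 1896 in GS at 6h and 12h and 100 and 1460 in PD. The members called did not change but for SLC7A5, which joined in GS at 12h. Small values turned to 0.20 (PSAT1, PD 6h), 0.0050 (CHAC1, GS 12h against 6h), 0.0093 (SLC7A5, the same), −0.079 (DDIT3, PD minus GS at 12h), 0.068 (CHAC1) and −0.024 (SLC7A5, both PD minus GS at 6h). With all 27 libraries in 1 fit, 1219 genes were called in GS at 6h, 479 in PD at 6h (2 of the 10), 3300 in PD at 12h (7 of the 10) and 492 in PD at 12h against 6h (1 of the 10). DESeq2 called 428 genes in PD at 6h (2 of the 10), 2560 at 12h (7 of the 10), 2 in GS and 224 in PD at 12h against 6h, and 7 and 15 for PD minus GS at 6h and 12h. SLC7A5 in PD minus GS at 6h was −0.0068 with DESeq2 and −0.0070 with its size factors. With no filter on low counts 103 genes were called in PD at 6h, and with no fold threshold 5295 and 7136 in GS at 6h and 12h. The mean log2 ratios within pigs turned to 0.49 for CHAC1 and −0.056 for SLC7A5 in PD minus GS at 6h.

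On rlog values, which shrink ratios, the mean log2 ratios in GS were 0.85 for ATF4, 1.18 for CHAC1, 1.24 for SESN2, 0.84 for SLC3A2 and 1.85 for TRIB3 at 6h and 1.78 for TRIB3 at 12h. In PD they were 0.58 for ATF4, 0.78 for SESN2, 1.62 for TRIB3 and 0.0012 for PSAT1 (a changed sign) at 6h, and 1.35 for SESN2, 1.49 for SLC3A2, 1.05 for SLC7A5 and 2.33 for TRIB3 at 12h.

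Without the 12h library of PD pig 2, 252 and 4161 genes were called in PD at 6h and 12h, and DDIT3 turned to 0.056 at 6h, 0.14 at 12h and 0.084 at 12h against 6h, and SLC7A5 in PD minus GS at 6h to −0.056. With the overlapping model added, DDIT3 in PD was 0.35, 0.58 and 0.23. Leaving out 1 pig at a time, the genes called ranged from 1318 (without pig 44) to 2148 in GS at 6h, from 0 (without pig 3, 4 or 5) to 98 in PD at 6h (members 0 to 1), and from 0 (without pig 3 or 5) to 3826 (without pig 2) in PD at 12h (members 0 to 7; 399 genes without pig 4). PD minus GS ranged from 0 to 248 genes at 6h and from 0 to 151 at 12h, both highest without PD pig 2, with none of the 10. Signs changed within these ranges. For GS at 12h they were −0.036 to 0.40 for PSAT1. For GS at 12h against 6h they were −0.31 to 0.31 for CHAC1, −0.055 to 0.34 for SESN2, −0.30 to 0.11 for SLC3A2, −0.27 to 0.073 for SLC7A5 and −0.24 to 0.085 for TRIB3. For PD at 12h they were −0.94 to 0.32 for DDIT3 and −0.15 to 0.78 for PSAT1, and at 6h −0.031 to 0.73 for ASNS, −0.49 to 0.40 for DDIT3, −0.39 to 0.80 for PHGDH and −0.74 to 0.23 for PSAT1. At 0h they were −0.26 to 0.44 for PHGDH and −0.16 to 0.25 for TRIB3. For PD minus GS they were −0.35 to 0.90 for DDIT3, −0.38 to 0.57 for PSAT1 and −0.012 to 0.56 for SESN2 at 12h, and −0.97 to 0.40 for CHAC1 and −0.50 to 0.46 for SLC7A5 at 6h. The cause of these shifts was not tested. CHAC1 had 1 count in PD pig 4 at 0h.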
